A study of Rattus norvegicus with 54 samples.

Results

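Cultures of rat cortical neurons that carried a virus expressing rMBD3 were compared with cultures that received no virus, at the 24 h time point, which the study counts from the induction of epileptiform activity. The comparison took every library labelled rMBD3 or non-transfected at that time point, which gave 12 of the 54 libraries of the study: 6 rMBD3 and 6 untransfected, each with 3 cultures in standard medium with magnesium and 3 in medium without magnesium. The neurons came from the cortex of rat embryos at embryonic day 18, and the cultures were numbered 1 to 3. The rMBD3 virus (AAV-SYN-rMBD3-GFP) was an adeno-associated virus in which the SYN promoter, a neuronal synapsin promoter, drives the insert, and it also carried GFP. The untransfected cultures had neither virus, nor GFP, nor the insert, so the comparison holds all 3 at once. A further virus with the SYN promoter and GFP alone (AAV-SYN-GFP, 6 libraries at 24 h) separates part of this and is described last. Magnesium-free medium is the study's model of epileptiform activity in a dish.

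Mbd3 is a member of the methyl-CpG-binding-domain protein family and a core subunit of NuRD, a complex that joins nucleosome remodelling with histone deacetylation and that acts at promoters and enhancers. Unlike its relative Mbd2, mammalian Mbd3 binds methylated DNA weakly. Removing magnesium ions lifts their block of the NMDA-type glutamate receptor, which lets cultured neurons fire in synchronous bursts. The study raised Mbd3 to ask what it does to expression in neurons under such activity.

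The count table lists genes by Ensembl identifier on the mRatBN7.2 build and pairs none of them with a symbol. Of its 30560 identifiers, 0 matched the symbol table at hand, so genes are given by identifier, and lists of neuronal, glial, chromatin and immune genes, as well as a check of the neuronal label against cell type markers, were not analysed here. Genes are instead grouped by what the table holds: their level, the length of chromosome they span, and their course over time. Levels are CPM, a gene's count relative to the total of its library, scaled by the trimmed mean of M values, and fold changes are log2, rMBD3 over untransfected, with their standard error (SE). A gene was called at a Benjamini-Hochberg adjusted p under 0.05 in edgeR's quasi-likelihood test, with medium and culture number as blocks.

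Total counts of the 12 libraries ran from 21838370 to 31912791. Some libraries stood apart from the others of their group. On the first principal component, which held 46.8% of the variance of the 12 libraries, both untransfected libraries of culture 1, the untransfected library of culture 3 with magnesium and the rMBD3 library of culture 1 with magnesium scored 77.1 to 102, and the rMBD3 library of culture 1 without magnesium scored 5.54. The remaining 7 libraries scored from -72.3 to -15.9. Mitochondrial genes took 3.16%, 4.07% and 4.90% of counts in the 3 untransfected libraries that stood apart and 1.75% to 2.73% in the other 3. In rMBD3 they took 3.56% in culture 1 with magnesium and 1.85% to 2.31% in the other 5 libraries. Genes that span more than 500 kb of chromosome summed to 6327 to 7204 CPM in the 3 untransfected libraries that stood apart, against 3538 to 3798 CPM in the other 3 and 3842 to 5400 CPM in rMBD3. Groups overlapped on each of these measures, and their part in the results below was not tested beyond leaving the libraries out.

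**Figure D1:**
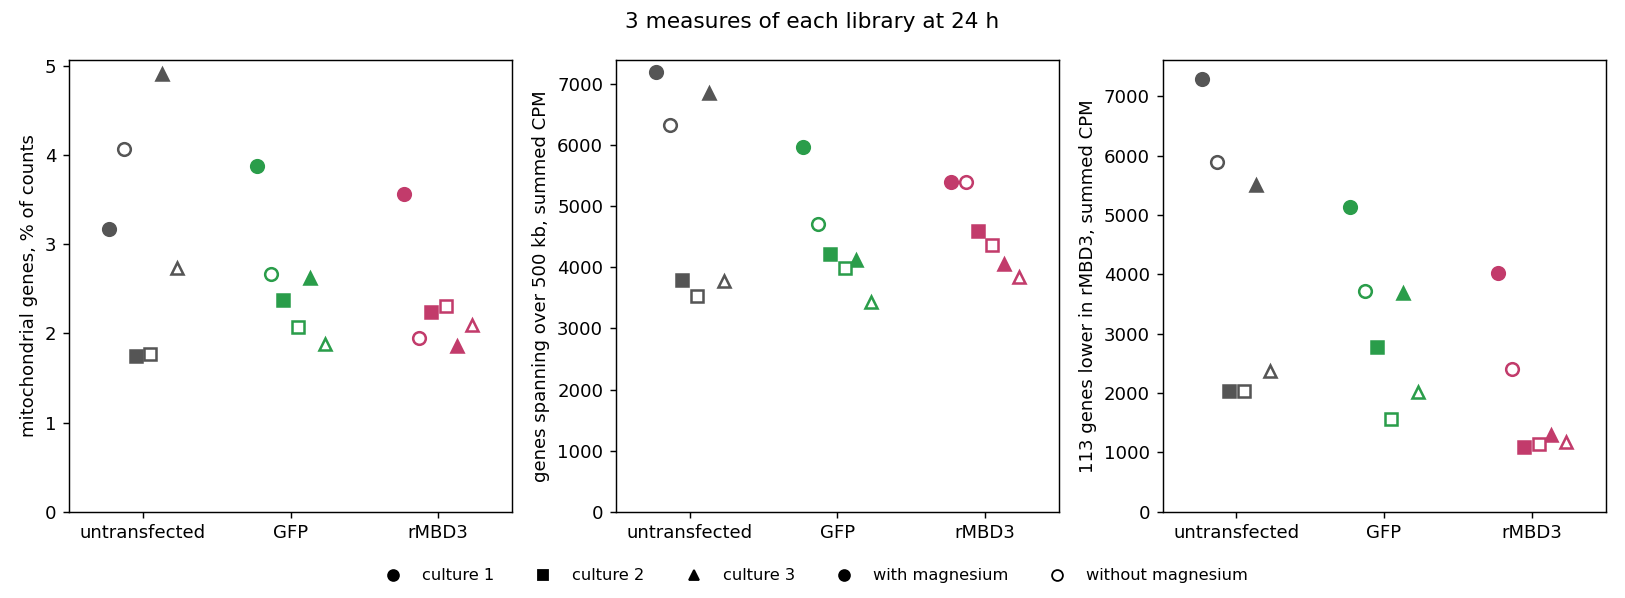
Share of counts from mitochondrial genes (%), summed CPM of genes spanning over 500 kb, and summed CPM of the 113 genes called lower in rMBD3, for each library at 24 h by construct. Each point is 1 library, shaped by culture and filled where the medium held magnesium; untransfected culture 1 (both media) and culture 3 with magnesium lie above the other untransfected libraries on all 3 measures.

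The gene with the largest rise was ENSRNOG00000028956, on chromosome 7, plus strand, from 9313098 to 9320165 (mRatBN7.2), a gene spanning 7068 bases with 1923 exonic bases. RefSeq places Mbd3 on the same chromosome in its GRCr8 assembly, but no identifier links both records, so the gene is not named here. Its level was 7370, 2839 and 3181 CPM in rMBD3 cultures 1, 2 and 3 with magnesium, and 7989, 2661 and 2291 CPM in the same cultures without magnesium. The untransfected cultures held 169, 195 and 262 CPM with magnesium and 249, 179 and 195 CPM without it. All 6 rMBD3 libraries lay far above all 6 untransfected ones, and both rMBD3 libraries of culture 1 lay well above those of cultures 2 and 3. The log2 fold change was 4.19 (SE 0.29, adjusted p = 7.63e-05), and it was 4.19 in each medium. In the GFP cultures the gene stood at 161 to 195 CPM, and GFP against untransfected gave a log2 fold change of -0.24 (SE 0.12, adjusted p = 0.816). This 1 gene took 0.230% to 0.814% of all counts in the rMBD3 libraries and 0.0176% to 0.0249% in the untransfected ones. The same gene was higher still at the earlier time points, at 14533 ± 4031 CPM (SD, n = 6) at 2 h and 9322 ± 1099 CPM at 6 h, against 4389 ± 2573 CPM at 24 h.

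Next among the raised genes that met the naming rule was ENSRNOG00000002365, on the X chromosome, minus strand, from 72486381 to 72492363. It stood at 5.12 CPM at the lowest, 5.86 CPM at the median and 27.9 CPM at the highest over the 6 rMBD3 libraries, and at 0.0697, 0.395 and 3.22 CPM over the untransfected ones. The groups did not overlap, although the lowest untransfected library held only 2 counts, below the floor of 3 counts used here. On the log2 scale the rise was 3.99 (SE 0.42, adjusted p = 0.00129). The GFP cultures held 0.814 to 7.37 CPM, overlapping both other groups. Their log2 fold change over untransfected was 2.34 (SE 0.40, adjusted p = 0.375), and rMBD3 over GFP gave 1.72 (SE 0.28, adjusted p = 0.00459).

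The largest fall by the same rule was that of ENSRNOG00000011332, on chromosome 5, plus strand, from 138850128 to 138885034. Untransfected cultures 1, 2 and 3 held 14.5, 4.68 and 7.82 CPM with magnesium and 31.1, 3.28 and 2.97 CPM without it. The rMBD3 cultures held 1.99, 1.14 and 0.552 CPM with magnesium and 0.236, 0.536 and 0.743 CPM without it, so the groups did not overlap. The log2 fold change was -3.30 (SE 0.57, adjusted p = 0.0238). The GFP cultures held 0.601 to 3.19 CPM, overlapping both other groups: GFP over untransfected gave -2.39 (SE 0.56, adjusted p = 0.669), and rMBD3 over GFP gave -0.93 (SE 0.54, adjusted p = 0.306), which was not called. At 2 h the same gene stood at 2.16 ± 1.38 CPM in untransfected and 1.83 ± 0.516 CPM in rMBD3 cultures (SD, n = 6 each), so that the 24 h difference lay beside a higher untransfected level, 10.7 ± 10.9 CPM, with culture 1 the highest in each medium. ENSRNOG00000028137, on chromosome 1, minus strand, from 190496319 to 190522762, followed with a log2 fold change of -2.72 (SE 0.40, adjusted p = 0.0117). Its untransfected libraries ran from 6.52 to 68.8 CPM with a median of 24.2 CPM, and its rMBD3 libraries from 1.21 to 19.9 CPM with a median of 2.70 CPM. Here the groups overlapped, but rMBD3 was the lower in all 6 pairs of the same culture and medium. The GFP cultures held 4.85 to 22.3 CPM, with GFP over untransfected at -1.09 (SE 0.46, adjusted p = 0.799) and rMBD3 over GFP at -1.64 (SE 0.35, adjusted p = 0.0127). The calls of both lowered genes and of ENSRNOG00000002365 ended without the culture block, at adjusted p = 0.0969, 0.264 and 0.119.

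**Figure D2:**
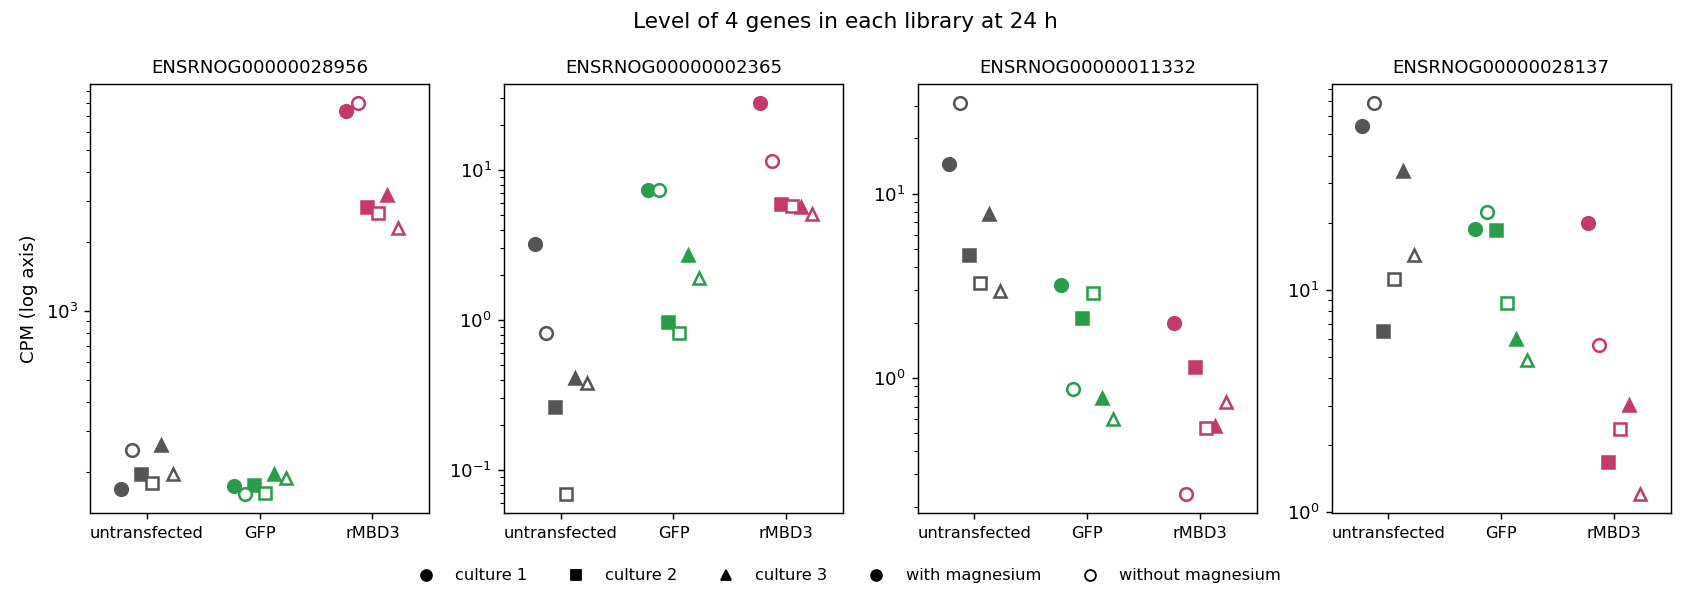
Level (CPM, log axis, a separate scale per panel) of 4 genes in every library at 24 h, by construct, with culture as point shape and magnesium as filled points. ENSRNOG00000028956 and ENSRNOG00000002365 are higher in all 6 rMBD3 libraries than in the 6 untransfected ones, ENSRNOG00000011332 is lower in all 6, and ENSRNOG00000028137 overlaps between the groups.

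Across the transcriptome, 258 of 15483 genes tested were called (1.67%). Of these, 145 were higher in rMBD3 (0.937%) and 113 were lower (0.73%), and the median log2 fold change of all genes was -0.01. The raised genes moved by less than the lowered ones: their median log2 fold change was 1.01 (quartiles 0.78 and 1.52, range 0.49 to 4.19), and 73 of the 145 reached 1. The lowered genes had a median of -1.76 (quartiles -2.16 and -1.43, range -5.07 to -0.62), and 101 of the 113 reached 1 in size. Agreement between libraries differed as well. Of the raised genes, 141 were higher in 6 of 6 same-culture, same-medium pairs, against 5.92% of all genes tested, and 70 had groups that did not overlap, against 0.949%. Of the lowered genes, 108 were lower in 6 of 6 pairs, against 7.03%, but only 13 had groups that did not overlap, against 0.639%. These shares come from the contrast that called the genes and are given as a description.

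**Figure D3:**
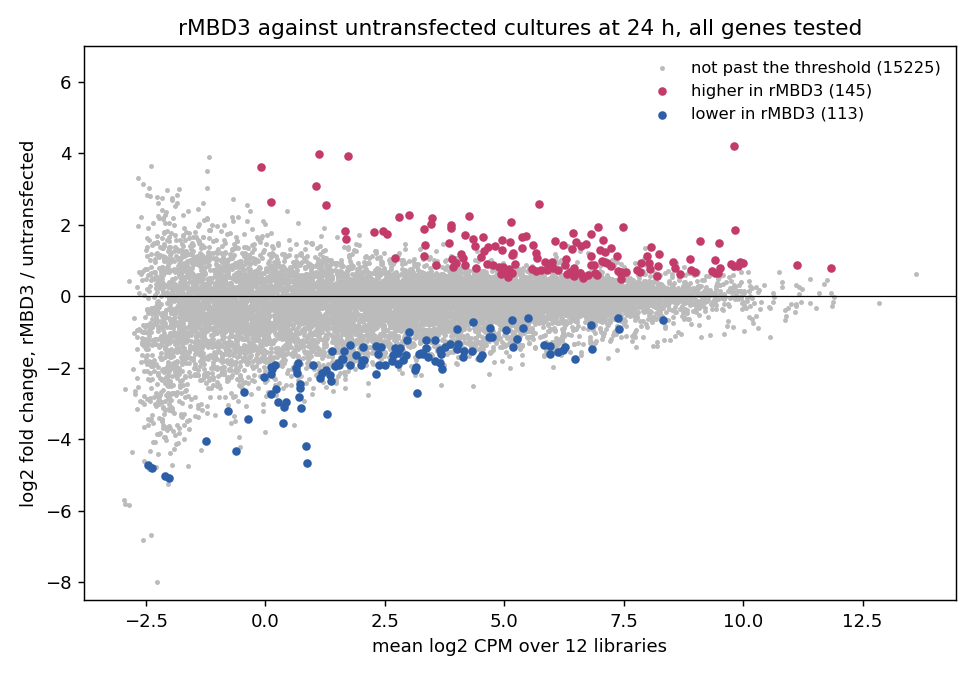
Log2 fold change of rMBD3 over untransfected at 24 h against the mean log2 CPM over the 12 libraries, 1 point per gene tested. The 145 called higher lie mainly at middle and high levels, the 113 called lower mainly at low and middle levels.

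The number of calls depended on the model and on single libraries. Without the culture block, 26 genes were called (25 higher, 1 lower). The balance of directions turned in other fits, with 472 higher and 1092 lower in DESeq2, 762 and 1750 in a model of all 54 libraries, and 492 and 654 in a model of the 18 libraries at 24 h. Leaving out 1 library changed the 258 calls by over 1.5 times for 6 of the 12: without the untransfected libraries of cultures 1 and 2 without magnesium 126 and 36 were called, without the rMBD3 libraries of cultures 1 and 3 without magnesium 67 and 46, and without those of cultures 2 and 3 with magnesium 42 and 41. When culture 1 and the untransfected library of culture 3 with magnesium were left out, a setting chosen after seeing the data, 719 genes were called higher and 646 lower among 14917. Of the genes called with all 12 libraries, 136 of the 145 raised and 91 of the 113 lowered were among those calls, and 145 and 108 kept their sign.

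Raised and lowered genes differed in level at 24 h. The median of the mean log2 CPM was 6.14 for the raised genes, 2.66 for the lowered genes and 4.32 for all genes tested. These means use the libraries that chose the genes, so the gap follows in part from that choice. In untransfected cultures at 2 h the order was the other way. There the median log2 CPM was 4.69 ± 0.18 for the raised and 5.44 ± 0.19 for the lowered genes (SD, n = 6). Among the 3733 genes above a log2 CPM of 6, 76 were called higher (2.04%) and 9 lower (0.241%), against 0.937% and 0.73% of all genes. Among the 2000 genes between 0 and 2, 7 were called higher (0.35%) and 36 lower (1.8%). The summed level of the raised genes other than ENSRNOG00000028956 was 34142 to 45508 CPM in rMBD3, with a median of 41456 CPM, and 15598 to 25118 CPM in untransfected cultures, with a median of 21482 CPM. No rMBD3 library overlapped the untransfected ones on this sum. The summed level of the lowered genes did overlap. Untransfected cultures 1 and 3 with magnesium held 7301 and 5512 CPM and culture 1 without magnesium 5890 CPM, whereas the other 3 untransfected libraries held 2035 to 2365 CPM. In rMBD3, culture 1 held 4032 CPM with magnesium and 2406 CPM without it, and cultures 2 and 3 held 1099 to 1298 CPM in either medium. Within each culture and medium rMBD3 was thus the lower, but both rMBD3 libraries of culture 1 lay above the 3 lowest untransfected libraries. Both sums use the libraries that chose the genes, so a difference between the groups follows in part from that choice. In bulk RNA, fewer cells of a type and less RNA per cell cannot be told apart.

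The cultures also differed in the level of ENSRNOG00000028956 and in how far the called genes moved. The difference in that gene was 5.44 and 4.95 on the log2 scale in culture 1 with and without magnesium, against 3.56 to 3.89 in cultures 2 and 3. The median difference of the raised genes was 0.88 and 1.21 in culture 1 and 0.85 to 1.44 in the other 4 pairs. The median difference of the lowered genes was -1.01 and -1.49 in culture 1 and -2.80 to -1.31 in the other 4 pairs. Culture 1 thus had the largest differences in that gene, while its raised genes lay within the range of the other pairs and its lowered genes with magnesium moved least of all 6 pairs. The largest median differences, 1.44 and -2.80, belonged to the pair of culture 3 with magnesium, whose untransfected library is one of those that stood apart.

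The lowered genes included more of the longest genes. Genes that span over 500 kb are few, 221 in the table, and in neurons many such genes encode adhesion molecules, receptors and ion channels. Of the 197 tested, 14 were called lower (7.11%) and 0 higher, with 0.73% and 0.937% of all genes as the background. Their median log2 fold change was -0.63, and 154 of them (78.2%) were below zero, against 7901 of all 15483 genes tested. Genes of 100 to 500 kb had 21 lower and 19 higher calls among 1973 and a median of -0.05. Those of 10 to 100 kb had 52 lower and 98 higher among 8818 and a median of 0.03. The median of the longest class varied between pairs, from -1.61 in culture 3 with magnesium to -0.01 in culture 2 without magnesium. The summed CPM of the class was not lower in rMBD3 throughout. In culture 2 it was 4592 CPM in rMBD3 against 3798 CPM with magnesium, and 4371 against 3538 CPM without it. In culture 3 without magnesium it was 3842 against 3782 CPM. It was lower in rMBD3 in culture 1 in both media and in culture 3 with magnesium. The 14 calls became 0 without the culture block, without culture 2, and on leaving out any 1 of 5 libraries (untransfected culture 2 without magnesium, rMBD3 cultures 1 and 3 without magnesium, and rMBD3 cultures 2 and 3 with magnesium). Leaving out culture 1 and the untransfected library of culture 3 with magnesium moved the median to -0.20, with 30 genes of the class called lower and 18 higher. The class was also shifted in GFP over untransfected cultures, with 169 of 199 below zero, a median of -0.32 and 0 calls. That comparison shares the untransfected libraries. In rMBD3 over GFP the median was -0.24, with 27 of 198 called lower (13.6%) and 16 higher (8.08%). Of all genes, 5.94% and 4.72% were called there.

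**Figure D4:**
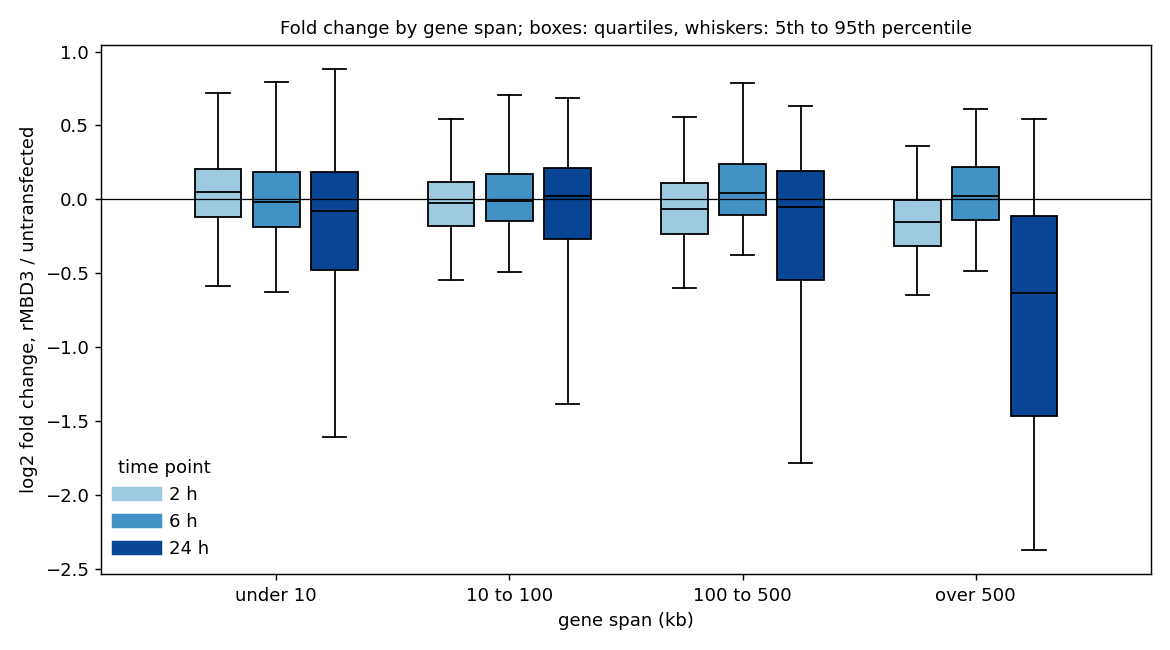
Log2 fold change of rMBD3 over untransfected at 2, 6 and 24 h for genes grouped by the chromosome length they span (kb). Boxes give the quartiles with the median as a line and whiskers the 5th to 95th percentile over genes; the medians lie near zero except for genes over 500 kb at 24 h, at -0.63.

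The earlier time points held other libraries, 6 rMBD3 and 6 untransfected at each, grown from cultures with the same numbers, and so gave measurements that the choice of genes at 24 h did not use. At 2 h, 69 of 144 raised genes tested were called higher and 0 lower, with 1.75% of all genes called higher and 2.22% called in either direction. At 6 h, 92 of 145 were called higher and 0 lower, with 3.16% of all genes called higher and 4.7% called in either direction. Their median log2 fold change was 0.80 at 2 h, 0.81 at 6 h and 1.01 at 24 h, so most of the difference was present at the first time point. The lowered genes behaved otherwise. At 2 h, 6 of 110 were called lower and 0 higher, with 0.466% of all genes called lower, and at 6 h 9 of 110 were called lower and 0 higher, with 1.54%. Their median was -0.18 at 2 h and -0.14 at 6 h, against -1.76 at 24 h. Of the 110, 89 were below zero and 21 above at 2 h, and 83 below and 27 above at 6 h. Of all genes, 47.6% and 49.6% were above zero at these times. The 24 h medians of both sets come from the libraries that chose the genes, so their size follows in part from that choice. The longest genes had medians of -0.15 at 2 h and 0.02 at 6 h, with 4 higher and 3 lower calls among 199 and 5 higher and 0 lower among 200. Without the culture block the raised genes called higher numbered 36 at 2 h and 46 at 6 h, and the lowered genes called lower 1 and 5.

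Many, but not all, of the raised genes also rose over time in cultures without rMBD3. From 2 to 6 h in untransfected cultures, 87 of 143 raised genes tested rose and 5 fell, while 17.8% of all genes rose and 21.7% fell, 39.5% together. From 6 to 24 h in GFP cultures, 66 of 145 rose and 9 fell, with 18.7% and 19.7% of all genes, 38.4% together. Neither interval uses a library of the comparison at 24 h. Of the lowered genes, 76 of 111 fell and 11 rose from 2 to 6 h in untransfected cultures, and 73 of 110 fell and 6 rose from 6 to 24 h in GFP cultures. Seen from the other side, of the 2775 tested genes that rose from 2 to 6 h in untransfected cultures 3.14% were called higher in the rMBD3 cultures at 24 h and 0.396% lower, and of the 3328 that fell 0.150% were called higher and 2.28% lower. The longest genes fell in most cases over these intervals, 142 of 200 from 2 to 6 h in untransfected cultures and 108 of 197 from 6 to 24 h in GFP cultures.

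The median log2 CPM of the 145 raised genes was 4.69 ± 0.18, 5.31 ± 0.22 and 5.65 ± 0.34 (SD, n = 6) in untransfected cultures at 2, 6 and 24 h, and 5.39 ± 0.23, 6.17 ± 0.16 and 6.64 ± 0.14 in rMBD3 cultures. The rMBD3 libraries lay above every untransfected library at each of the 3 time points, of which 24 h holds the libraries that chose the genes. For the 113 lowered genes the untransfected cultures stood at 5.44 ± 0.19, 4.16 ± 0.52 and 3.37 ± 1.09, and the rMBD3 cultures at 5.27 ± 0.14, 4.10 ± 0.38 and 1.79 ± 1.34. The groups overlapped at every time point, and the spread between libraries of 1 construct grew with time. At 24 h the untransfected libraries ran from 2.28 to 4.74 and the rMBD3 libraries from 0.72 to 3.93, with culture 1 the highest in both.

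**Figure D5:**
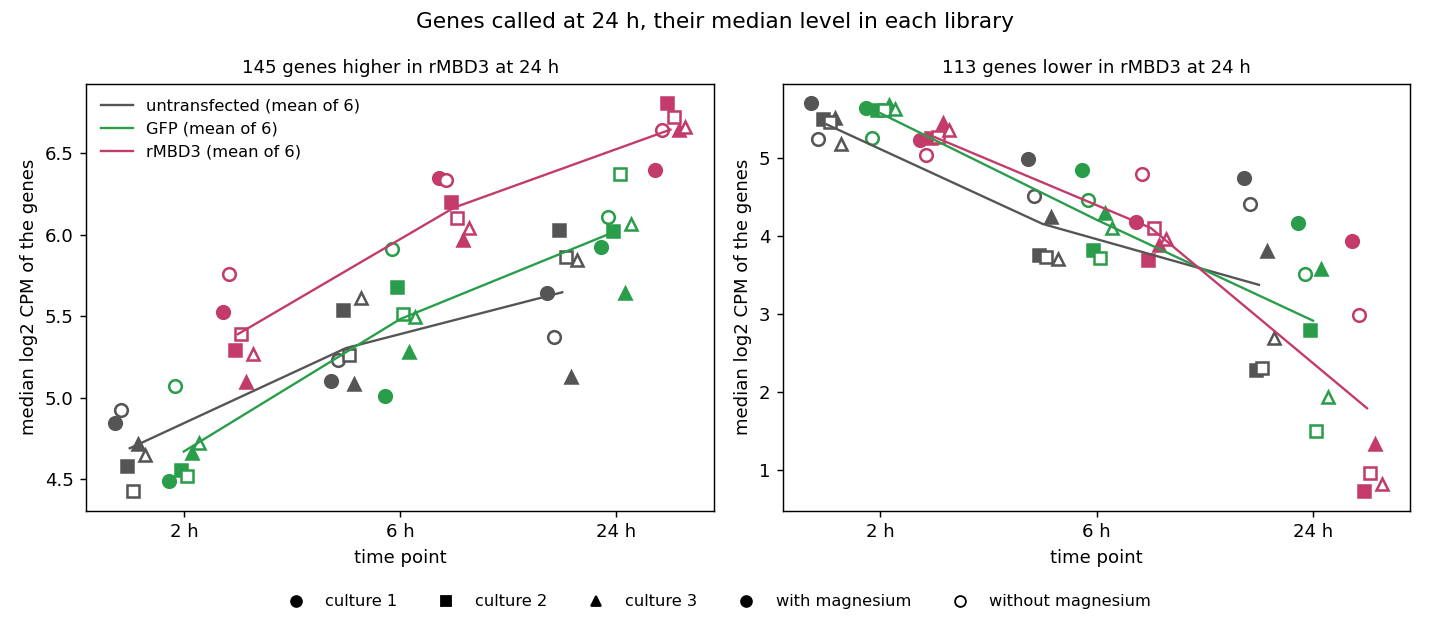
Median log2 CPM of the 145 raised genes (left) and of the 113 lowered genes (right) in each library at 2, 6 and 24 h, coloured by construct, with lines through the means of 6 libraries. The raised genes are higher in rMBD3 at all 3 time points and climb in every construct, whereas the lowered genes decline in every construct and their means separate at 24 h.

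The difference between time points was tested itself. The rMBD3 effect differed between 24 h and 2 h for 29 of 16420 genes (0.177%), with 3 more positive (0.0183%) and 26 more negative (0.158%) at 24 h. Of the 26, 18 were among the 113 lowered genes, a count that shares the 24 h libraries with the choice of those genes. Without ENSRNOG00000028956, the 25 had a median log2 fold change of -1.61 at 24 h and 0.11 at 2 h. The gap between these medians follows in part from the choice of the genes, which used the same libraries. One of them, ENSRNOG00000016640, on chromosome 9, minus strand, from 85586987 to 85902637, stood at 168 ± 14.9 CPM in untransfected and 160 ± 11.6 CPM in rMBD3 cultures at 2 h (SD, n = 6 each). At 24 h it stood at 23.8 ± 22.2 CPM and 10.2 ± 11.9 CPM, with rMBD3 the lower in 6 of 6 pairs although culture 1 raised both means. Its log2 fold change went from -0.04 (SE 0.08) to -1.45 (SE 0.19), a difference of -1.40 (SE 0.18, adjusted p = 0.00496).

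A gene whose effect grew was ENSRNOG00000020030, on chromosome 16, minus strand, from 18924722 to 18935997. It stood at 13.3 ± 1.92 and 14.1 ± 1.68 CPM in untransfected and rMBD3 cultures at 2 h, at 8.07 ± 0.628 and 16.5 ± 4.13 CPM at 6 h, and at 9.11 ± 4.10 and 43.5 ± 8.46 CPM at 24 h (SD, n = 6 each). The groups overlapped at 2 h and were apart at 6 and 24 h. Its log2 fold change was 0.11 (SE 0.13) at 2 h, 1.02 (SE 0.14) at 6 h and 2.23 (SE 0.30) at 24 h, and the difference between 24 h and 2 h was 2.13 (SE 0.34, adjusted p = 0.0142). Between 24 h and 6 h, 0 of 16418 genes were called by edgeR (0%), with 2086 at an unadjusted p under 0.05 and a smallest adjusted p of 0.0586, and DESeq2 called 594. The count between 24 h and 2 h was 0 without culture 2, 2 without culture 3, 116 without culture 1 and 1 without the culture block.

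Within each medium, 3 libraries were compared with 3, as contrasts of a single model fitted to all 12 libraries. The spread and the culture block behind each SE and adjusted p were thus shared by both media. With magnesium 8 of 16234 genes were called (0.0493%), 7 higher (0.0431%) and 1 lower (0.00616%), and without magnesium 3 were called (0.0185%), all higher, while DESeq2 called 723 and 338. The 3 were ENSRNOG00000028956, ENSRNOG00000024689 and ENSRNOG00000029399, named because they are all of the calls. ENSRNOG00000024689, on chromosome 14, plus strand, from 31075148 to 31082909, held 371, 61.4 and 112 CPM in rMBD3 cultures 1, 2 and 3 without magnesium and 33.1, 9.87 and 22.7 CPM in the untransfected ones. With magnesium it held 209.7, 73.1 and 123 CPM against 50.9, 16.6 and 14.8 CPM. Culture 1 was the highest within each construct and medium, and the groups did not overlap in either medium. The log2 fold change reached 2.80 (SE 0.30, adjusted p = 0.0105) without magnesium and 2.37 (SE 0.29, adjusted p = 0.0225) with it. The GFP cultures held 17.3 to 163 CPM over both media, overlapping both other groups. Over both media, GFP over untransfected gave 1.00 (SE 0.28, adjusted p = 0.751) and rMBD3 over GFP 1.59 (SE 0.23, adjusted p = 0.00459).

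ENSRNOG00000029399, on chromosome 1, minus strand, from 79415017 to 79429403, varied less between cultures than ENSRNOG00000028956 and ENSRNOG00000024689 did. It held 29.2, 24.8 and 17.2 CPM in rMBD3 cultures 1, 2 and 3 with magnesium and 25.8, 20.9 and 16.9 CPM without it. Untransfected libraries held 4.45 to 7.24 CPM in both media together. The log2 fold change was 2.05 (SE 0.22, adjusted p = 0.0120) with magnesium and 1.97 (SE 0.22, adjusted p = 0.0113) without it. The GFP cultures held 8.13 to 21.8 CPM over both media, above the untransfected libraries and overlapping rMBD3. Over both media, GFP over untransfected gave 1.17 (SE 0.22, adjusted p = 0.452) and rMBD3 over GFP 0.86 (SE 0.20, adjusted p = 0.0161). The gene called lower with magnesium was ENSRNOG00000008992, on chromosome 5, plus strand, from 137767865 to 137984307, named after its value was seen as the only such call. It held 19.3, 4.12 and 4.86 CPM in untransfected cultures 1, 2 and 3 with magnesium. The same rMBD3 cultures held 1.28, 0.179 and 0.147 CPM, a log2 fold change of -4.45 (SE 0.58, adjusted p = 0.0253). In rMBD3 cultures 2 and 3 these were only 5 and 4 counts, close to the floor of 3 counts. Without magnesium the values were 5.93, 2.44 and 1.98 CPM against 7.55, 0.650 and 0.469 CPM. There rMBD3 was higher in culture 1 and lower in cultures 2 and 3, and the log2 fold change was -1.14 (SE 0.51, adjusted p = 0.731). Over both media the gene was not called, at -2.72 (SE 0.67, adjusted p = 0.0639). The GFP cultures held 0.426 to 5.78 CPM over both media, overlapping both other groups. GFP over untransfected gave -0.82 (SE 0.36, adjusted p = 0.805) and rMBD3 over GFP -1.77 (SE 0.87, adjusted p = 0.225).

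The difference of the rMBD3 effect between media was called for 0 of 16234 genes (0%) by edgeR, with 164 at an unadjusted p under 0.05 and a smallest adjusted p of 1, while DESeq2 called 60. For ENSRNOG00000008992 that difference was 3.32 (SE 0.74, adjusted p = 1). All 145 raised genes were above zero and all 113 lowered genes below zero in either medium, where they share the libraries that chose them. The median of the raised genes was 1.04 with and 1.01 without magnesium, and that of the lowered genes -1.86 and -1.58. The calls within a medium all ended without the culture block, with 0 genes in each.

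The GFP virus at 24 h was compared with both other constructs. The comparisons of rMBD3 with GFP and of GFP with untransfected each share 6 libraries with the comparison above, so their values are set side by side without a test of their overlap. Since the genes were chosen as apart between rMBD3 and untransfected cultures, a place of GFP between them follows in part from that choice and is not read as a result. The median log2 fold change of the raised genes was 1.01 for rMBD3 over untransfected, 0.66 for rMBD3 over GFP and 0.36 for GFP over untransfected. That of the lowered genes was -1.76, -1.14 and -0.51. Over all genes, rMBD3 against GFP called 1647 of 15453 (10.7%), 729 higher (4.72%) and 918 lower (5.94%), more than against untransfected cultures. The biological coefficient of variation of that fit was below the 37.2% of the fit of rMBD3 with untransfected. GFP against untransfected called 0 of 15734 genes in edgeR (0%), with 964 at an unadjusted p under 0.05 and a smallest adjusted p of 0.223, and DESeq2 called 127. That order of the counts turned without the culture block, at 2 for rMBD3 against GFP and 26 for rMBD3 against untransfected, and without culture 3, at 17 and 32; without culture 2 the counts were 757 and 10.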

How the data were processed

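Per the labels' protocols, a KAPA kit that keeps strand was used on mRNA. The authors deposited counts per gene, made with featureCounts 2.0.0 on read pairs (strand setting 2, minimum mapping quality 3, primary alignments) with Ensembl release 105 gene models on mRatBN7.2, per the file headers, whereas the labels' protocols name rn6. Strand was used, so antisense neighbours were counted apart; genes with near-identical copies were not identified. A deposited table of log2 values was not used here.

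From the counts, edgeR 4.0.16 in R 4.3.3 fitted a robust quasi-likelihood model with construct, medium and culture number to the 12 libraries compared, after filterByExpr (minimum count 10, minimum total 15) and TMM scaling. Benjamini-Hochberg adjustment covered every gene of a fit, and calls were made at 0.05. Each SE was the log2 fold change divided by the root of its F. Log2 CPM used a prior count of 2. Differences of effect were interaction terms. DESeq2 1.42.0, RLE factors, no low-count filter, other models and left-out cultures or libraries were alternatives. Scripts were tested on simulated data.

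Groups and culture numbers came from the labels, which give the number as that of the cell culture, so the number was used as a block. Deviations of same-numbered, same-medium libraries correlated at -0.09 to 0.53, over 0.1 in 5 of 6 pairs. No pair of libraries within a group looked like 1 library (lowest chi-square per gene 25.8 over 12 pairs). Nothing says that cultures came from separate animals. In fits with that block, p-values measure the spread left between these libraries once culture number and the other terms are fitted. Differences in level between cultures are taken out, and libraries of the same culture in different media count as separate. These p-values therefore do not measure the spread between cultures or between animals.

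Total counts of all 54 libraries were 14448927 to 39691105. The floor of 3 counts was 0.0940 to 0.137 CPM in the 12 libraries and covers counting error only, as reads carried no molecular identifiers. Named genes had an adjusted p under 0.05, a mean log2 CPM of at least 1 and the same sign in 6 of 6 pairs (139 raised and 82 lowered genes). The 2 with the largest change per direction are given. For other tests up to 2 per direction were taken by adjusted p, except that all calls without magnesium are given. Genes so taken for rMBD3 against GFP are not described, apart from ENSRNOG00000028956. The members and lists were chosen with earlier results of these data known. The planned lists (401 symbols) need symbols and were not applied, since 0 of 30560 identifiers matched the 47357 genes of RefSeq's GRCr8 table. For the same reason no sequences are printed.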

Additional observations from a re-analysis of the deposited data

Results flagged for a closer look

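The effect of rMBD3 against untransfected cultures differed between 24 h and 2 h for 29 genes by the interaction test in edgeR. For ENSRNOG00000028956 the difference was -2.35 on the log2 scale (SE 0.32, adjusted p = 0.00503), from 6.54 at 2 h to 4.19 at 24 h, and the rMBD3 cultures were far above the untransfected ones at both times. For ENSRNOG00000020030 the difference was 2.13 and for ENSRNOG00000016640 it was -1.40, as described above. For ENSRNOG00000018992, on chromosome 18, minus strand, from 35377181 to 35480157, the difference was 0.79 (SE 0.15, adjusted p = 0.0451), with a log2 fold change of -0.48 (SE 0.08) at 2 h that was called (adjusted p = 0.00584) and of 0.30 (SE 0.13) at 24 h that was not (adjusted p = 0.245). That gene stood at 706 ± 41.4 CPM in untransfected and 497 ± 50.4 CPM in rMBD3 cultures at 2 h, and at 324 ± 40.7 and 411 ± 93.8 CPM at 24 h (SD, n = 6 each). The GFP cultures stood at 720 ± 39.1 CPM at 2 h and at 408 ± 57.8 CPM at 24 h, the latter close to rMBD3. At 24 h rMBD3 over GFP gave -0.01 (SE 0.12, adjusted p = 0.971). GFP over untransfected gave 0.33 (SE 0.11, adjusted p = 0.751).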

How the results depend on the processing

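The 258 calls of rMBD3 against untransfected at 24 h became 26 with no replicate block, 151 with the block set within medium (6 pairs), 1146 in a model of the 18 libraries at 24 h, 2512 in a model of all 54 libraries, 1564 in DESeq2 and 1365 without culture 1 and untransfected culture 3 with magnesium, the last chosen after seeing the data. They were 244 with RLE factors and 286 without the low-count filter. Leaving out a culture or a library gave 10 to 369, the lowest without culture 2. No direction was reversed in any setting for the 4 genes named in that comparison. ENSRNOG00000028956 stayed called in all 23 settings, at log2 fold changes of 3.71 to 4.54, and ENSRNOG00000002365, ENSRNOG00000011332 and ENSRNOG00000028137 in 22, 16 and 19 of them. Without the replicate block, rMBD3 against GFP fell to 2 calls, both comparisons within a medium to 0 and the difference between 24 h and 2 h to 1. GFP against untransfected and the 2 other tests of a difference stayed at 0 there. DESeq2 gave 127 for GFP against untransfected, 723 with and 338 without magnesium, 60 for the difference between media, 595 for 24 h against 2 h and 594 for 24 h against 6 h. Without the low-count filter the counts within media were 23 and 13. Leaving out a culture gave 17 to 1721 for rMBD3 against GFP, 0 to 7 for GFP against untransfected, 0 to 2 with and 0 to 9 without magnesium, 0 to 116 for 24 h against 2 h and 0 to 102 for 24 h against 6 h. Added fits with no replicate block called 82 in place of 343 genes for rMBD3 against untransfected at 2 h and 133 in place of 732 at 6 h. The cause of these shifts was not tested. Genes near the floor of 3 counts limit what can be said of large falls at low level.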

Other observations

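The 21 tested mitochondrial genes had 0 calls in edgeR at 24 h, 19 of them were below zero and their median log2 fold change was -0.34, beside the higher mitochondrial share of the untransfected libraries that stood apart. Calls were spread over the chromosomes. The share of tested genes called ran from 0.873% on chromosome 17 to 3.23% on chromosome 13, and the X chromosome had 5 higher (0.936%) and 8 lower (1.498%) calls among 534 genes, with 0.937% and 0.73% of all genes. By exonic length, genes under 2 kb had 33 higher (0.771%) and 14 lower (0.327%) calls among 4281, and genes of 4 to 8 kb had 35 higher (0.882%) and 42 lower (1.06%) among 3967.

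The 3 tested genes on each side of ENSRNOG00000028956 were not called. Their log2 fold changes ran from -1.10 to 0.36, against 4.19 for that gene, with adjusted p of 0.246 to 0.740 in edgeR.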
